A study of Mus musculus with 12 samples.

Results

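A set of 10 receptor genes by which innate immune cells sense microbial molecules was followed in cultured mouse eosinophils: the Toll-like receptor genes Tlr2, Tlr4, Tlr6, Tlr7 and Tlr13, the co-receptor gene Cd14, and the C-type lectin receptor genes Clec7a, Clec4d, Clec4e and Clec4n. They were taken by gene symbol from a table of 54532 genes; all 10 were found, and all 10 were among the 14547 genes that passed the filter on low counts. The cells were SSChigh4get+ eosinophils sorted from the spleens of IL-5tg_4get/C57BL/6 mice. In these mice a transgene supplies the eosinophil growth factor IL-5, so that eosinophils are abundant, and the 4get allele reports transcription of the interleukin 4 gene by green fluorescence; every group carried both. Cells were cultured for 4 h in 4 groups of 3 libraries. The combined group received anti-Siglec-F antibody (clone E50-2440, 5 µg/mL) together with recombinant murine IL-33 (10 ng/mL), the next IL-33 alone, the third anti-Siglec-F alone and the last a rat IgG2a isotype control antibody. The labels name no promoter for the transgene and no age or sex of the mice, do not say whether isotype antibody was added with IL-33 alone, and name no separate mice or cultures behind the replicates. The p-values therefore rest on a spread between libraries that may be technical.

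Toll-like receptors are membrane proteins that bind conserved microbial structures on the cell surface or in endosomes and signal through the adaptor MyD88 or TRIF to NF-kappaB and interferon regulatory factors. The C-type lectin receptors studied here bind fungal and mycobacterial sugars and lipids and signal through Syk and Card9, either by their own tail (Dectin-1, from Clec7a) or through the Fc receptor gamma chain. IL-33 is an alarmin whose receptor, ST2, also signals through MyD88; Siglec-F is an inhibitory sialic-acid-binding lectin characteristic of mouse eosinophils.

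Library totals ranged from 11686603 to 17137988 assigned counts. A pair of libraries of the combined group, numbers 2 and 3, differed from the rest: 15555 and 29990 genes had counts there, against 19138 to 24485 in the remaining 10, and their share of counts from ribosomal protein genes was 3.08% and 3.57%, with 1.52% to 2.43% in the others. Of the defining eosinophil markers, Siglecf was measured at 535 to 1070 CPM (counts per 1000000 counts, scaled for library composition) and Ccr3 at 1290 to 1910 CPM over the 12 libraries. Receptor and named list gene calls that were lost without these 2 libraries are given with and without them; such a fit keeps combined library 1 alone and takes its spread from the other groups.

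The microbial lectin receptor genes Clec4e, Clec4n and Clec4d and the surface receptor genes Cd14 and Tlr2 rose with IL-33, alone or with anti-Siglec-F. Against isotype, 6 of the 10 genes rose in the combined group (those 5 and Clec7a) and 5 of 10 with IL-33 alone, none fell, and no gene of the 10 passed the test with anti-Siglec-F alone. Over all tested genes 5.47% rose and 4.41% fell in the combined group and 1.46% rose and 0.749% fell with IL-33 alone, while 0% changed in either direction with anti-Siglec-F alone. The median log2 fold change of the 10 genes was 2.12 in the combined group and 1.91 with IL-33, where the medians over all tested genes were -0.05 and -0.01. Both comparisons share the isotype libraries. The 10 genes were chosen with earlier results of these data known, so the shares and medians beside them do not test the set. The test was edgeR's quasi-likelihood test over all tested genes with Benjamini-Hochberg adjustment, and a gene was called at an adjusted p under 0.05. In these bulk samples, fewer cells of a type and less RNA per cell cannot be told apart.

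**Figure D1:**
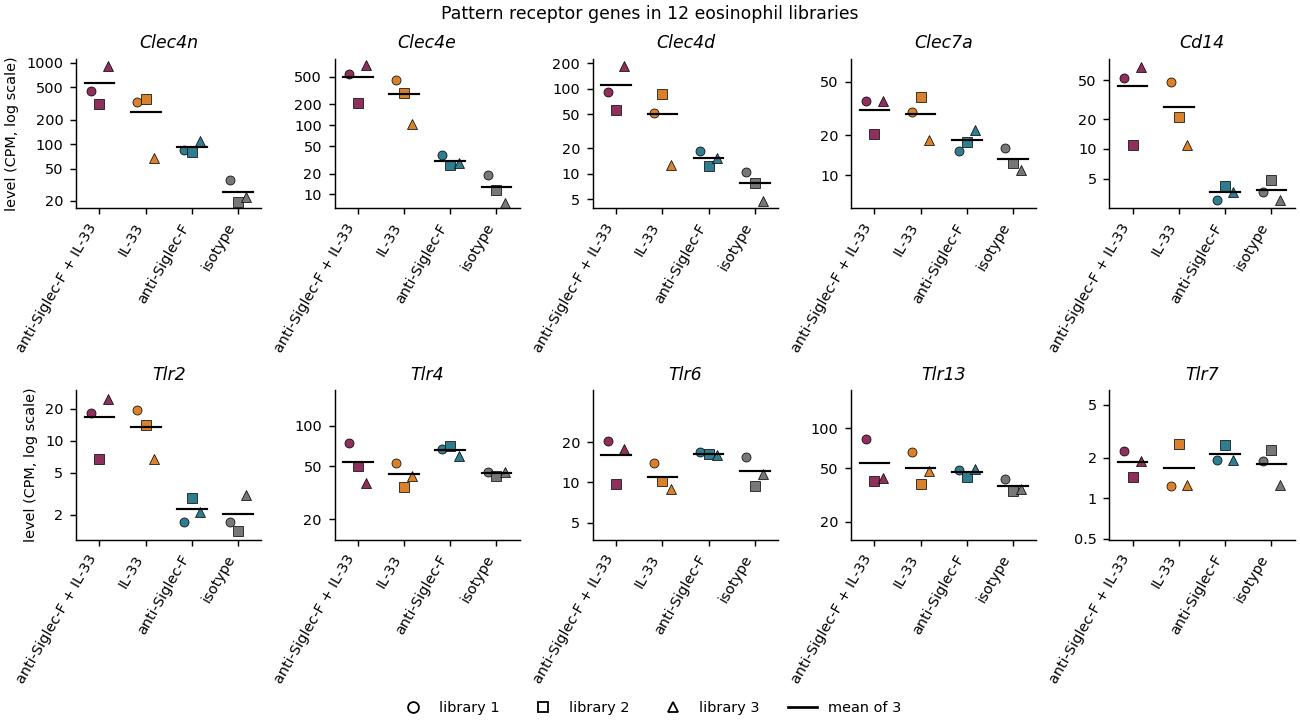
Level of each receptor gene in CPM on a log axis, in the combined anti-Siglec-F plus IL-33, IL-33, anti-Siglec-F and isotype groups; symbols are libraries 1 to 3 and lines are group means (n = 3). In the panels of Clec4n, Clec4e, Clec4d, Clec7a, Cd14 and Tlr2 every combined and every IL-33 library lies above every isotype library, with IL-33 library 3 and combined library 2 the lowest of their groups.

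Clec4e encodes Mincle, a receptor for mycobacterial cord factor and for a nuclear protein released by dying cells. Its level was 541, 208 and 749 CPM in the combined libraries, 445, 288 and 103 CPM in the IL-33 libraries, 36.9, 26.7 and 28.8 CPM in the anti-Siglec-F libraries and 19.3, 11.7 and 7.60 CPM in the isotype libraries. Each IL-33 library stood above each anti-Siglec-F library, and each of those above each isotype library. The log2 fold change against isotype was 5.27 ± 0.589 (SE, adjusted p = 0.000167) in the combined group, the highest of the 10 genes, and 4.43 ± 0.567 (adjusted p = 0.000766) with IL-33 alone. On the linear scale these were 38.6-fold and 21.5-fold. Both calls held when any single library of either group was left out.

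Clec4n encodes Dectin-2, which binds fungal mannans. Its level was 446, 308 and 919.8 CPM in the combined libraries, 324, 352 and 67.4 CPM in the IL-33 libraries, 84.0, 78.8 and 110.3 CPM in the anti-Siglec-F libraries and 36.5, 19.6 and 22.3 CPM in the isotype libraries. All 3 stimulated groups lay above the isotype range, but IL-33 library 3 lay below all 3 anti-Siglec-F libraries. The log2 fold change against isotype was 4.41 ± 0.572 (SE, adjusted p = 0.000513) in the combined group and 3.24 ± 0.543 (adjusted p = 0.00597) with IL-33. Both calls held without any single library.

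Clec4d encodes MCL, a receptor that pairs with Mincle and also binds cord factor. It was measured at 91.9, 55.9 and 187 CPM in the combined libraries, 51.7, 87.0 and 12.8 CPM in the IL-33 libraries, 18.6, 12.2 and 15.4 CPM in the anti-Siglec-F libraries and 10.5, 7.83 and 4.70 CPM in the isotype libraries. IL-33 library 3 lay within the anti-Siglec-F range and above the isotype range. The log2 fold change against isotype was 3.85 ± 0.605 (SE, adjusted p = 0.0017) in the combined group and 2.71 ± 0.583 (adjusted p = 0.028) with IL-33. The combined call held without any single library, whereas the IL-33 call held in 1 of 6 such fits, the one without IL-33 library 3, with an adjusted p of up to 0.138 in the others.

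These 3 genes lie side by side on mouse chromosome 6 (mm10), Clec4n (ENSMUSG00000023349) at chr6:123229843-123247021 and Clec4d (ENSMUSG00000030144) at chr6:123262111-123275265 on the plus strand and Clec4e (ENSMUSG00000030142) at chr6:123281789-123289870 on the minus strand. Gaps of 15089 and 6523 bases separate them. Windows before the annotated RefSeq start (GRCm38.p6) were used for 6 of the 10 genes, and none for Tlr4, Tlr7, Cd14 and Clec4n. The 250 bases before the start of Clec4e (chr6:123289872-123290121, minus strand) and Clec4d (chr6:123261857-123262106, plus strand) are shown because these neighbours rose together. Capitals mark matches to motifs that were searched on both strands.
Clec4e: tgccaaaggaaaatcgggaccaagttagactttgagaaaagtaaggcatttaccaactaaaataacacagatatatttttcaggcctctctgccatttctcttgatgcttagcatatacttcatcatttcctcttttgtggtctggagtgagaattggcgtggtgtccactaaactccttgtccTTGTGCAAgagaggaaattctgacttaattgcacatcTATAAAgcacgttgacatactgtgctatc
Clec4d: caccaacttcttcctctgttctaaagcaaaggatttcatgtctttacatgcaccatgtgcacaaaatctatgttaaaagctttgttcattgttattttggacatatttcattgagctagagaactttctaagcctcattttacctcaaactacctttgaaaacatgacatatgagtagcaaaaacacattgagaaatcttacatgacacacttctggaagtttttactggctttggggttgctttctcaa
The Clec4e window held a C/EBP match (TTGCNNAA, read on the opposite strand) at bases -66 to -59 from the start and a TATAAA at -29 to -24. Of 32851 promoter windows of the same length, 9.56% held the C/EBP motif and 12.4% held TATAAA. In the Clec4d window no match was found to these letters, to AP-1 (TGANTCA), to PU.1 (AGGAAGT) or to the kappaB consensus, which 6.75%, 7.69% and 7.25% of all windows held. Motif matches were not confined to genes that rose. Tlr6, not called by edgeR on all 12 libraries, held a C/EBP and a PU.1 match before 1 RefSeq start and TATAAA before another. Clec7a, called in the combined group, held no match, and neither did Tlr13, which was not called in that fit. Any part of these motifs in the rise was not tested. A match is a string of letters, not a binding site.

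Neighbouring genes were then listed, a step chosen after the members' values had been seen. Of 21 annotated genes within 300 kb of the 3, 8 passed the filter and all 8 are C-type lectin genes. In the combined group 6 of the 8 rose against isotype (Clec4a4, Clec4a2, Clec4b2 and the 3 members), and with IL-33 alone 5 rose, the same set without Clec4a2. Of all tested genes 5.47% rose in the combined group and 1.46% with IL-33. The 3 members set the window, so they are not new genes in these counts. Clec4a2, an inhibitory receptor of myeloid cells in the mouse also called DCIR1, averaged 332 ± 117 CPM in the combined group, 153 ± 53.4 with IL-33, 130 ± 13.7 with anti-Siglec-F and 73.6 ± 11.7 CPM with isotype (SD, n = 3 each). Its log2 fold change was 2.17 ± 0.29 (SE, adjusted p = 0.00062) in the combined group and 1.06 ± 0.282 (adjusted p = 0.0752) with IL-33. Clec4a4 and Clec4b2 averaged 12.9 and 17.9 CPM in the combined group, 8.81 and 7.54 CPM with IL-33 and 1.79 and 1.47 CPM with isotype. Clec4a1 and Clec4a3, at the far end of the row, averaged 1.41 and 2.15 CPM in the combined group, 2.44 and 2.97 CPM with IL-33 and 1.92 and 1.59 CPM with isotype, and neither was called. On the other side, the vomeronasal receptor genes and pseudogenes Vmn2r19, Vmn2r21, Vmn2r-ps31 and Vmn2r-ps32 had no count in any group, while Vmn2r20 averaged 0.318 CPM in the combined group, 0.0262 CPM with IL-33 and 0 CPM with isotype and did not pass the filter. The combined call of Clec4a4 was lost without combined libraries 2 and 3 (log2 fold change 2.25, adjusted p = 0.0557).

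**Figure D2:**
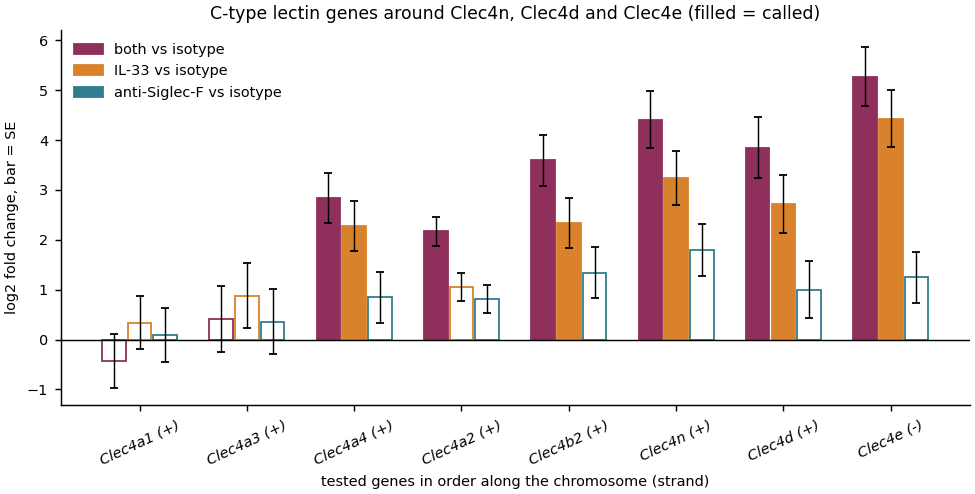
Log2 fold change against isotype (y axis, bars with SE) of the 8 tested genes around Clec4n, Clec4d and Clec4e, in chromosome order with their strand, for the combined, IL-33 and anti-Siglec-F groups; filled bars were called. The 6 genes from Clec4a4 to Clec4e have combined values of 2.17 to 5.27, and Clec4a1 and Clec4a3 lie between -0.43 and 0.88.

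Clec7a (ENSMUSG00000079293, chr6:129461591-129472779, minus strand) encodes Dectin-1, the receptor for fungal beta-glucan. It was measured at 35.8, 20.5 and 35.8 CPM in the combined libraries, 29.6, 38.3 and 18.3 CPM in the IL-33 libraries, 15.2, 17.8 and 21.8 CPM in the anti-Siglec-F libraries and 16.1, 12.4 and 10.97 CPM in the isotype libraries. All combined and all IL-33 libraries exceeded all isotype libraries, and the anti-Siglec-F range overlapped both IL-33 and isotype. The log2 fold change against isotype was 1.22 ± 0.285 (SE, adjusted p = 0.0168) in the combined group. With IL-33 alone it was 1.13 ± 0.285, with an adjusted p of 0.0613; DESeq2 (adjusted p = 0.00547), limma voom (0.00168) and edgeR without the filter on low counts (0.000179), without combined libraries 2 and 3 (0.0245) or without IL-33 library 3 (0.0109) called it. The combined call was lost without isotype library 2, isotype library 3 or combined library 3, with an adjusted p of up to 0.0846. Over the 10 genes, 6 had no overlap with isotype in each of these comparisons, all higher. Without overlap and higher were 12% of all tested genes in the combined comparison and 11% in the IL-33 comparison.

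Tlr2 (ENSMUSG00000027995, chr3:83836272-83841767, minus strand) encodes the receptor for bacterial lipopeptides, which works as a dimer with the product of Tlr1 or Tlr6. It was measured at 18.3, 6.65 and 24.7 CPM in the combined libraries, 19.2, 14.0 and 6.70 CPM in the IL-33 libraries, 1.72, 2.89 and 2.14 CPM in the anti-Siglec-F libraries and 1.70, 1.40 and 3.06 CPM in the isotype libraries. The 6 libraries with IL-33 did not overlap the 6 without. The log2 fold change against isotype was 3.01 ± 0.507 (SE, adjusted p = 0.00263) in the combined group and 2.70 ± 0.503 (adjusted p = 0.0117) with IL-33. The combined call held without any single library. The IL-33 call was lost without isotype library 1, isotype library 2 or IL-33 library 1, with an adjusted p of up to 0.0733. The 250 bases before the RefSeq start of Tlr2 (chr3:83841609-83841858, minus strand, GRCm38.p6) are shown for their kappaB matches; part of the window lies inside the gene as the deposited table bounds it.
Tlr2: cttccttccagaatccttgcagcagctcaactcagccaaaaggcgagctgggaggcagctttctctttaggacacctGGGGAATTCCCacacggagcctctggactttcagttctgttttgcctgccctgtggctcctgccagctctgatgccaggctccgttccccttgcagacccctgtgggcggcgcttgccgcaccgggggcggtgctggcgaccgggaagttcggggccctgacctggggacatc
The capitals hold 2 overlapping matches to the kappaB consensus, at bases -173 to -164 and -172 to -163 from the start, a consensus found in 7.25% of windows.

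Cd14 (ENSMUSG00000051439, chr18:36725074-36726736, minus strand) encodes the surface protein that hands bacterial lipopolysaccharide to Tlr4 and lipopeptides to Tlr2. It was measured at 52.9, 11.1 and 68.3 CPM in the combined libraries, 48.2, 21.2 and 11.03 CPM in the IL-33 libraries, 3.00, 4.18 and 3.67 CPM in the anti-Siglec-F libraries and 3.66, 4.80 and 3.06 CPM in the isotype libraries. As for Tlr2, all 6 libraries with IL-33 lay above all 6 without it, while the spread among the 6 was wide. The log2 fold change against isotype was 3.52 ± 0.613 (SE, adjusted p = 0.00324) in the combined group and 2.80 ± 0.601 (adjusted p = 0.0275) with IL-33. The combined call held without any single library. The IL-33 call was lost without any 1 of the isotype libraries or without IL-33 library 1, with an adjusted p of up to 0.149.

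Levels of the other 4 Toll-like receptor genes lay closer together, and none of the 4 was called by edgeR in any of the 6 tests on all 12 libraries. Tlr4 (ENSMUSG00000039005, chr4:66827584-66930284, plus strand), the lipopolysaccharide receptor gene, was measured at 74.0, 50.2 and 37.7 CPM in the combined libraries, 53.0, 35.1 and 42.2 CPM in the IL-33 libraries, 67.0, 70.9 and 59.9 CPM in the anti-Siglec-F libraries and 45.2, 42.1 and 45.4 CPM in the isotype libraries. The anti-Siglec-F libraries stood above all isotype and all IL-33 libraries, and the combined range covered all isotype libraries. Against isotype, its log2 fold change had a 95% interval of -0.18 to 0.76 in the combined group and -0.50 to 0.44 with IL-33. Without combined library 1, edgeR called Tlr4 lower in the combined group than with anti-Siglec-F alone (log2 fold change -0.60, adjusted p = 0.0424). Tlr13 (ENSMUSG00000033777, chrX:106143204-106160493, plus strand), the mouse sensor of bacterial ribosomal RNA, was measured at 82.6, 40.04 and 42.0 CPM in the combined libraries, 65.9, 38.0 and 48.2 CPM in the IL-33 libraries, 48.6, 43.3 and 49.3 CPM in the anti-Siglec-F libraries and 41.5, 34.0 and 35.0 CPM in the isotype libraries. Against isotype, its log2 fold change was 0.58 in the combined group (95% interval 0.01 to 1.14, edgeR adjusted p = 0.178) and 0.46 with IL-33 (-0.10 to 1.02). Tlr13 was called with IL-33 by limma voom (0.64, adjusted p = 0.0207) and in the combined group by edgeR when combined library 1 alone stood for it (1.22, adjusted p = 0.0159). Its highest value came from combined library 1, which was also the highest of its group for Tlr4, Tlr6 and Tlr7.

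Tlr6 (ENSMUSG00000051498, chr5:64952031-64960097, minus strand), the other partner of Tlr2, was measured at 20.5, 9.67 and 17.9 CPM in the combined libraries, 13.9, 10.3 and 8.87 CPM in the IL-33 libraries, 16.7, 16.1 and 16.1 CPM in the anti-Siglec-F libraries and 15.5, 9.38 and 11.6 CPM in the isotype libraries. The combined and IL-33 ranges overlapped isotype. Its log2 fold change against isotype was 0.39 in the combined group (95% interval -0.20 to 0.99) and -0.14 with IL-33 (-0.74 to 0.46). Its transcripts share 12.3% of their 50-base words with other genes, Tlr1 among them, so its count is less certain than those of the other 9 genes, which share at most 0.686%. Tlr7 (ENSMUSG00000044583, chrX:167304929-167330558, minus strand), an endosomal sensor of single-stranded RNA, was near the limit of these libraries with 16 to 32 counts in each. That corresponded to 1.43 to 2.27 CPM in the combined libraries, 1.24 to 2.52 CPM with IL-33, 1.93 to 2.49 CPM with anti-Siglec-F and 1.25 to 2.29 CPM with isotype. The 95% interval of its log2 fold change was -0.87 to 0.96 in the combined group and -1.05 to 0.80 with IL-33, and a change inside these intervals was not detectable at this depth.

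Genes were set beside each other per kilobase of the deposited gene length. On this scale Clec4n had the highest mean level of the 10 in every group. By CPM alone, Clec4e came first with IL-33 and Tlr4 with isotype, where Clec4n had rank 3. Per kb, Clec4n stood at 393 ± 226 CPM in the combined group, 174.5 ± 110.5 with IL-33, 64.1 ± 11.9 with anti-Siglec-F and 18.4 ± 6.39 with isotype (SD, n = 3 each). In the combined group Clec4e (101 CPM per kb), Clec4d (69.7) and Cd14 (28.0) followed, then Tlr13 (12.8), Clec7a (11.6), Tlr4 (9.71), Tlr2 (5.48), Tlr6 (4.29) and Tlr7 (0.457). With IL-33 alone the order of the 10 means was the same. In isotype cells Tlr13 (8.55 CPM per kb) and Tlr4 (7.96) came after Clec4n, followed by Clec7a (4.98), Clec4d (4.80), Tlr6 (3.27), Clec4e (2.59), Cd14 (2.44), Tlr2 (0.681) and Tlr7 (0.444). With anti-Siglec-F the order was Clec4n, Tlr4 (11.9), Tlr13 (10.9), Clec4d (9.62), Clec7a (6.94), Clec4e (6.20), Tlr6 (4.38), Cd14 (2.30), Tlr2 (0.746) and Tlr7 (0.519). Neighbours in these orders overlapped in their libraries, except Clec4n with Clec4e and Tlr6 with Tlr7 in the combined group, Tlr6 with Tlr7 with IL-33, Clec4n with Tlr4, Clec4e with Tlr6, Tlr6 with Cd14 and Cd14 with Tlr2 with anti-Siglec-F, and Clec4n with Tlr13, Tlr4 with Clec7a and Cd14 with Tlr2 with isotype. The 4 lectin genes made up 86.3%, 90.8% and 92.7% of the 10 genes' summed level per kb in the combined libraries, 84.6%, 91.1% and 73.0% in the IL-33 libraries, 73.2%, 70.6% and 77.1% in the anti-Siglec-F libraries and 62.5%, 53.8% and 51.8% in the isotype libraries.

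With anti-Siglec-F alone, 0 of the 10 genes and 0 of all tested genes were called against isotype by edgeR. Of 14547 tested genes, 370 had an unadjusted p under 0.05, a share below that threshold itself, and DESeq2 called 12. The largest difference among the 10 was that of Clec4n, at 91.0 ± 16.9 CPM with anti-Siglec-F and 26.1 ± 9.08 CPM with isotype (SD, n = 3 each). Its log2 fold change was 1.80 (95% interval 0.69 to 2.91, unadjusted p = 0.00379, adjusted p = 1). Clec4e followed at 1.25 (0.15 to 2.36), then Clec4d at 1.00 (-0.23 to 2.22) and Tlr4 at 0.58 (0.11 to 1.04), each with an adjusted p of 1. In 6 of the 10 genes (Clec4n, Clec4e, Clec4d, Tlr4, Tlr6 and Tlr13) every anti-Siglec-F library exceeded every isotype library, as it did for 6.73% of all tested genes. Clec4n was called when only these groups were fitted or no filter was applied, and Clec4d and Clec4e only without the filter. Cd14 and Tlr2 had log2 fold changes of -0.09 (-1.42 to 1.24) and 0.13 (-0.98 to 1.25).

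**Figure D3:**
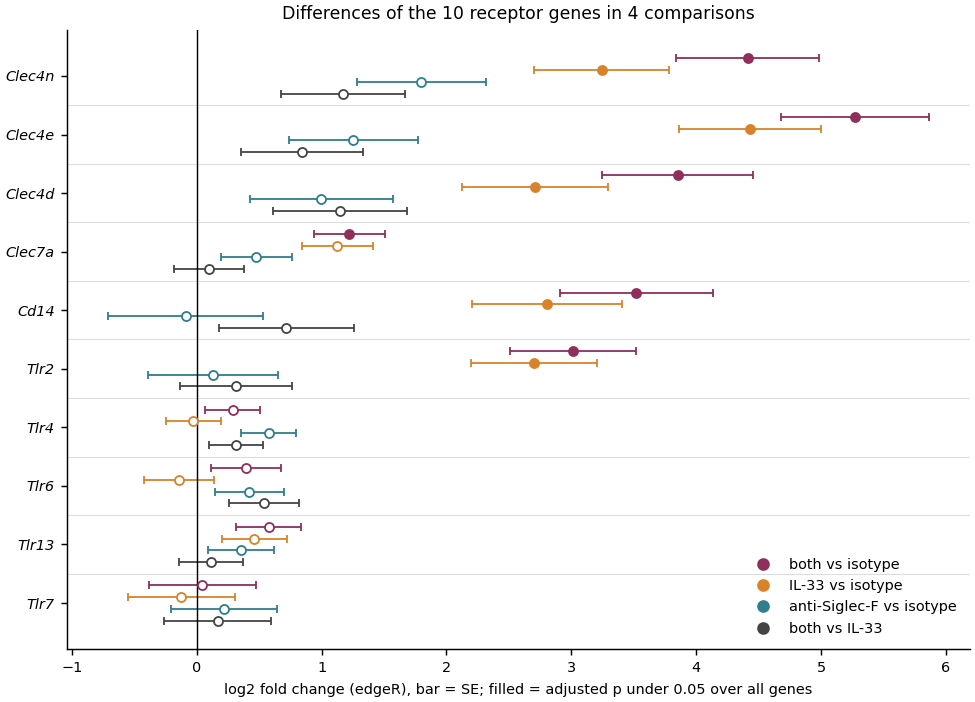
Log2 fold change (x axis, with SE) of the 10 genes in the combined group against isotype, IL-33 against isotype, anti-Siglec-F against isotype and the combined group against IL-33; filled points were called. Combined and IL-33 values of the called genes lie between 1.22 and 5.27, anti-Siglec-F values between -0.09 and 1.80, and combined-against-IL-33 values between 0.10 and 1.17 with none called.

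Whether anti-Siglec-F added to IL-33 was tested by setting the combined group against IL-33 alone. No gene of the 10 was called, nor was any of the tested genes (0%). Of 14547 tested genes, 2526 had an unadjusted p under 0.05, and DESeq2 called 470. With edgeR on all 12 libraries, all 10 log2 fold changes were above 0. Their median was 0.43, where that of all tested genes was -0.03. In refits with other settings or a library left out, the sign was not stable. It turned in 5 refits for Clec7a, 4 each for Tlr13 and Tlr7, 3 for Tlr2 and 1 for Cd14. For Clec4n, Clec4d, Clec4e, Tlr4 and Tlr6 it held in every refit. The largest log2 fold changes on all 12 libraries were 1.17 for Clec4n (95% interval 0.10 to 2.25, adjusted p = 0.256), 1.15 for Clec4d (-0.01 to 2.30), 0.84 for Clec4e (-0.21 to 1.89) and 0.72 for Cd14 (-0.44 to 1.88). For all 10 genes the libraries of the groups overlapped, where 14.1% of all tested genes had no overlap. Without combined library 1, 2116 genes were called, none of them among the 10. With combined library 1 alone, its spread taken from the other groups, 0 of the 10 were called. Without the filter on low counts Clec4n, Clec4d and Clec4e were called.

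The combined group against anti-Siglec-F alone addressed the effect of IL-33 in the presence of the antibody. Clec4e (log2 fold change 4.02 ± 0.551, SE, adjusted p = 0.0016), Cd14 (3.61 ± 0.617, adjusted p = 0.00651), Tlr2 (2.88 ± 0.502, adjusted p = 0.00735), Clec4d (2.86 ± 0.573, adjusted p = 0.0158) and Clec4n (2.62 ± 0.525, adjusted p = 0.0158) rose, 5 of the 10, where 2.7% of all tested genes rose and 1.72% fell. The same 5 genes had no overlap between groups, as had 10% of all tested genes, higher. Clec7a had 0.75 (adjusted p = 0.138), and was called without the filter (adjusted p = 0.0436). Clec4d and Clec4n lost their calls without combined library 3 or any 1 anti-Siglec-F library, and also in the fit with combined library 1 alone (adjusted p = 0.0582 and 0.0685), which has no spread of its own for that group. Cd14 and Tlr2 lost theirs without anti-Siglec-F library 1, with adjusted p of 0.0532 and 0.056, and limma voom did not call Cd14 (adjusted p = 0.0556). The interaction, the difference of the IL-33 effect with and without antibody, was called for 0 of the 10 and 0% of all genes by edgeR. Unadjusted, 1150 of 14547 genes had p under 0.05, and DESeq2 called 3. Among the 10 it lay between -0.63 for Clec4n (95% interval -2.14 to 0.89) and 0.81 for Cd14 (-0.96 to 2.57).

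In the combined group against isotype, all 6 genes were also called without combined libraries 2 and 3, where 651 of all genes were called in place of 1437. That fit sets 1 combined library against 3 isotype libraries and assumes that it varies like the other groups. Under scaling by library totals alone, the median log2 fold change of all genes in this comparison shifted to -0.25 and the calls to 472 higher and 1420 lower, against 796 higher and 641 lower with composition scaling, and the 6 receptor genes remained called as higher.

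Other genes of these pathways were counted from lists chosen with earlier results of these data known. Beside the counts of these lists, and of the markers further below, stand the shares over all tested genes. In the combined group 5.47% rose and 4.41% fell against isotype, and with IL-33 alone 1.46% rose and 0.749% fell. Among the other Toll-like receptor genes, 1 of 4 tested rose in both comparisons with isotype: Tlr9, the sensor of CpG DNA, averaged 64.1 ± 45.6 CPM in the combined group, 69.6 ± 19.4 CPM with IL-33 and 10.5 ± 1.07 CPM with isotype (SD, n = 3 each). Its log2 fold change was 2.61 ± 0.391 (SE, adjusted p = 0.00128) in the combined group and 2.73 ± 0.392 (adjusted p = 0.00192) with IL-33. Tlr8 was lower in the combined group, at 0.0958 ± 0.112 CPM against 0.798 ± 0.327 CPM with isotype (adjusted p = 0.0497), a call that 5 of 6 single-library omissions ended, as did RLE scaling, limma voom, no filter and the omission of combined libraries 2 and 3 (adjusted p = 0.0516 to 0.407). None of 8 tested co-receptor and chaperone genes was called in either comparison. Ly96, which encodes the MD-2 partner of Tlr4, had 1.09 ± 0.374 (adjusted p = 0.081) in the combined group and 0.41 ± 0.376 with IL-33.

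Of 21 tested adaptor and kinase genes, 5 rose in the combined group and 4 with IL-33, and none fell. Irak3, whose product restrains MyD88 signalling, averaged 351 ± 69.3 CPM in the combined group, 338 ± 48.3 CPM with IL-33 and 51.9 ± 6.1 CPM with isotype (SD, n = 3 each), log2 fold changes of 2.76 ± 0.186 and 2.70 ± 0.186 (SE). Ikbke, a kinase acting on interferon regulatory factors, rose by 2.77 ± 0.554 on the log2 scale in the combined group and 2.35 ± 0.548 with IL-33, a call lost when the replicate number was a block (adjusted p = 0.0518). Pik3ap1, a signalling adaptor, rose by 1.44 ± 0.316 and 1.62 ± 0.318 on this scale in the same comparisons. Irak2 rose in the combined group (1.11 ± 0.238) and Traf3 with IL-33 (0.96 ± 0.197). Myd88 itself averaged 140 ± 11.8 CPM in the combined group, 116 ± 6.53 CPM with IL-33 and 119 ± 11.1 CPM with isotype, and was not called.

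Of 15 tested other C-type lectin genes, 4 rose in the combined group and 3 with IL-33. Beside Clec4b2, Clec4a4 and Clec4a2 these included Olr1, the receptor for oxidised low-density lipoprotein, at 371 ± 118 CPM in the combined group, 338 ± 99 CPM with IL-33 and 98.3 ± 14.8 CPM with isotype. Among 14 genes of lectin receptor signalling, 3 rose in the combined group and none with IL-33. Fcer1g, which encodes the Fc receptor gamma chain that Mincle, MCL and Dectin-2 signal through, averaged 979 ± 297 CPM in the combined group, 526 ± 155 CPM with IL-33 and 414 ± 48.3 CPM with isotype, a combined log2 fold change of 1.24 ± 0.271 (adjusted p = 0.0124). Ptpn6, an inhibitory phosphatase, and Bcl10, the partner of Card9, followed at 0.77 ± 0.168 and 0.53 ± 0.153. All 3 calls were lost without combined libraries 2 and 3, where Fcer1g had 0.69 (adjusted p = 0.263), Ptpn6 0.77 (adjusted p = 0.0803) and Bcl10 0.62 (adjusted p = 0.116). The Bcl10 call was also lost under library totals alone, without the filter and with only the groups compared. Syk (985 ± 297 CPM in the combined group, 1210 ± 110 with IL-33, 943 ± 67.2 with isotype) and Card9 (60.6 ± 32.9, 59.7 ± 12.4 and 79.7 ± 4.38 CPM in the same groups) were not called.

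Of 11 cytosolic receptor genes, 1 rose and 1 fell in the combined group and 1 fell with IL-33. Of all tested genes 5.47% rose and 4.41% fell in the combined group and 0.749% fell with IL-33. Dhx58, an RNA sensor of the RIG-I family, fell to 8.19 ± 0.456 CPM in the combined group and 10.8 ± 2.45 CPM with IL-33, against 20.3 ± 1.71 CPM with isotype. Ripk2, the kinase downstream of the NOD receptors, rose by 0.80 ± 0.202 on the log2 scale in the combined group. Of 8 formyl peptide and scavenger receptor genes, Trem1 and Trem3, amplifiers of Toll-like receptor signalling, rose in both comparisons, by 2.07 ± 0.37 and 2.10 ± 0.303 in the combined group and by 1.56 ± 0.366 and 1.40 ± 0.3 with IL-33 on the log2 scale. The IL-33 call of Trem1 was lost when the replicate number was a block (adjusted p = 0.0581). Ripk2 was not called under library totals alone or by limma voom. Of these list genes, Irak3, Tlr9 and Olr1 kept their IL-33 calls without any single library; Dhx58, Ikbke, Traf3, Trem1, Trem3 and Clec4b2 kept them in 1 of 6 such fits, and Pik3ap1 and Clec4a4 in 2 of 6. Combined calls held in all 6 fits for Irak3, Ikbke, Tlr9, Olr1, Clec4a2, Clec4a4, Clec4b2, Dhx58, Trem1 and Trem3, in 5 for Pik3ap1 and Ptpn6, in 4 for Fcer1g and Irak2, in 2 for Ripk2 and in 1 for Bcl10 and Tlr8. With anti-Siglec-F alone none of these list genes was called.

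**Figure D4:**
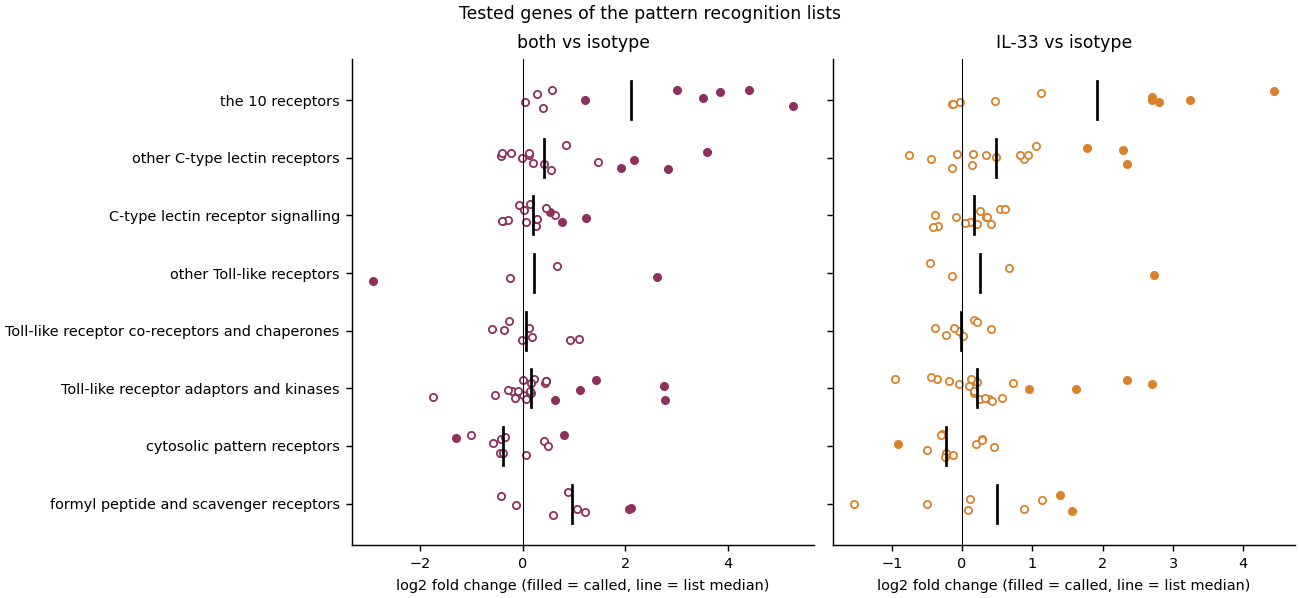
Log2 fold change of every tested gene of the 10 receptors and 7 further lists, in the combined group against isotype (left) and IL-33 against isotype (right); filled points were called and lines are list medians. The 10 receptors have medians of 2.12 and 1.91, and the other lists lie between -0.39 and 0.97 (left) and between -0.24 and 0.50 (right).

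Some of the receptors are also expressed by monocytes, macrophages and neutrophils, so the summed levels of their markers are set beside the results. The 16 monocyte and macrophage markers summed to 3400 to 4450 CPM in the combined libraries, 2750 to 3690 CPM with IL-33, 2210 to 2570 CPM with anti-Siglec-F and 1710 to 1990 CPM with isotype, an order shared with the lectin genes. Most of this came from Adgre1 (F4/80, which mouse eosinophils also carry), at 1030 to 2670 CPM over the 12 libraries, and Csf1r, at 407 to 1070 CPM. Both rose in both comparisons, as did Spic: 4 of the 14 tested markers rose and 1 (Ccr2) fell in the combined group, and 3 rose with IL-33, where the calls of Adgre1 and Spic held in 2 and 3 of the 6 fits that leave out a library. The fourth was Slc40a1, the iron exporter of red pulp macrophages, at 235 ± 118 CPM in the combined group, 125 ± 70.7 CPM with IL-33 and 68.0 ± 17.1 CPM with isotype (SD, n = 3 each); its combined call (log2 fold change 1.79, adjusted p = 0.0264) held in 1 of 6 fits that leave out a library. Vcam1, also carried by splenic macrophages, averaged 88.7 ± 45.1 CPM in the combined group, 67.9 ± 46.7 CPM with IL-33 and 22.6 ± 14.7 CPM with isotype, with no overlap between the combined and isotype libraries (log2 fold change 1.97, adjusted p = 0.0584). The Ccr2 call was lost without combined libraries 2 and 3 (-0.60, adjusted p = 0.269). Of the macrophage genes not called, Mertk, Cd163 and C1qa were at 0 to 0.429, 0 to 0.613 and 0.14 to 2.8 CPM over the 12 libraries. The 13 neutrophil markers summed to 875 to 1930 CPM in the combined libraries, 487 to 1590 with IL-33, 1110 to 2250 with anti-Siglec-F and 1000 to 2200 CPM with isotype, and none of them was called in these comparisons. Dendritic cell markers summed to 639 to 706, 577 to 931, 603 to 944 and 558 to 732 CPM in the same order of groups, and none was called. Eosinophil markers summed to 10300 to 17100, 7190 to 11400, 10100 to 15500 and 10500 to 15500 CPM, again with no call. Over all 12 libraries the sums were 150 to 255 CPM for basophil and mast cell markers, where Cd200r3 fell with IL-33 (not called without the filter or with only the groups compared), 35 to 129 CPM for T cell, NK cell and ILC2 markers, 606 to 1250 CPM for B and plasma cell markers, 5.88 to 30.2 CPM for erythroid markers and 51.1 to 183 CPM for platelet markers, and 295 to 546 CPM for stromal and endothelial markers, where Pecam1 and Acta2 rose in the combined group, Acta2 not without combined libraries 2 and 3 (log2 fold change 0.59, adjusted p = 0.407). The part of other cell types in the receptor results was not tested.

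**Figure D5:**
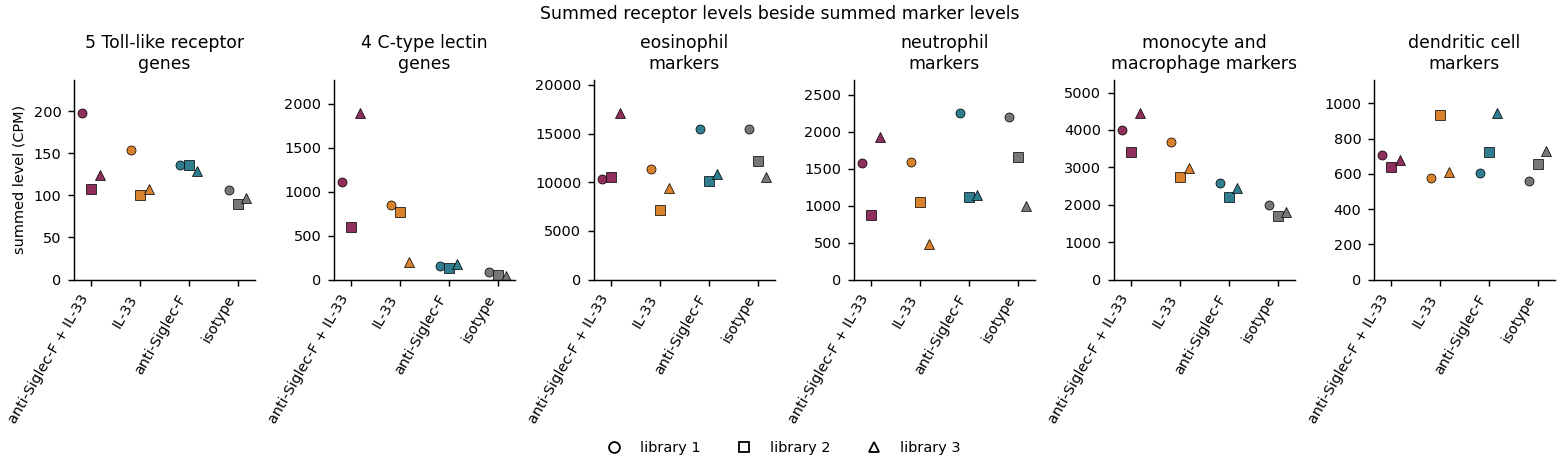
Summed level in CPM of the 5 Toll-like receptor genes, the 4 C-type lectin genes and 4 marker lists in each library, by group; symbols are libraries 1 to 3. The lectin sum is 592 to 1891 CPM in the combined libraries, 201 to 850 with IL-33, 136 to 176 with anti-Siglec-F and 45.6 to 82.3 with isotype. The Toll-like receptor sum is 108 to 198 CPM in the combined libraries, 99.9 to 153 with IL-33, 129 to 136 with anti-Siglec-F and 89.1 to 106 with isotype.

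Patterns over the 12 libraries were compared by the root mean square difference of log2 CPM after centring each gene on its own mean, a description over libraries that share their groups. Among 9178 genes, those most like Tlr2 were Nfkbiz (0.36), Rab20 (0.40) and Nfkbia (0.40), and those most like Cd14 were Ikbke (0.43), Tlr2 itself (0.48) and Rab20 (0.49). Clec4d and Clec4n were each other's nearest gene (0.40). Closest to Clec4e were Peg10 (0.48), Ccl3 (0.49) and Acod1 (0.54), and closest to Clec7a was Ptgir (0.18). Of the genes with a narrow range, the nearest were Zswim4 for Tlr4 (0.14), Atp6v1a for Tlr13 (0.15) and, among 9179 genes, Cyren for Tlr7 (0.23).

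Within the combined group, library 2 was the lowest of the 3 for all 6 called receptor genes and library 3 the highest for 5 of them. Within the IL-33 group, library 3 was the lowest for all 6. IL-33 library 3 had 19950 genes with counts and 1.52% ribosomal protein counts, the lowest such share of the 12 libraries; the part of this in the receptor values was not tested.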

How the data were processed

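RNA sequencing libraries were prepared with the NEBNext Ultra RNA kit, per the labels' protocols. The submitters' processing notes name fastp, FastQC 0.11.8, STAR 2.6.1d, featureCounts 1.5.0-p3, DESeq2 and the mm10 build; the labels and headers name neither the strand setting nor the annotation release. The authors deposited raw counts per gene, which were used as they stood, and gene length, which served only for CPM per kilobase.

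Counts were analysed with edgeR 4.0.16 (R 4.3.3): filterByExpr by group, TMM scaling, 12 libraries in 1 fit without a block, and quasi-likelihood tests of 5 group comparisons and the interaction, adjusted by Benjamini-Hochberg over all tested genes. The script was tested on simulated data. Alternatives used DESeq2 1.42.0, limma 3.58.1, other scalings, filters and sample sets, and each library left out in turn.

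The 10 genes and all lists were chosen with earlier results of these data known. The text names all 10, up to 4 called genes per pathway list and comparison, and the 3 most similar genes of at least 5 CPM per receptor at most; 1 listed lectin gene, Clec6a, was not used here. Of 12 libraries, 7 deviated from their group mean most like a library of their own number; the numbers paired only IL-33 with isotype (correlations of 0.154 to 0.214, every pair over 0.1). The gene nearest in pattern to Tlr6 is not reported here.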

Additional observations from a re-analysis of the deposited data

How the results depend on the processing

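Counts of all called genes varied widely with the method. IL-33 against isotype gave 322 calls, and 806 with DESeq2 (6 receptors, against 5), 2089 with limma voom (7), 683 without the filter on low counts (6), 688 without combined libraries 2 and 3 (6), and 116 to 488 with single libraries left out. Anti-Siglec-F against isotype gave 0, and 12 with DESeq2, 10 with limma voom, 70 without the filter (3 of the 10 receptors), 20 with only the groups compared (1 receptor), 1 without combined libraries 2 and 3, and 0 to 0 with single libraries left out. The combined group against isotype gave 1437, and 2404 with DESeq2, 738 with only the groups compared, 651 without combined libraries 2 and 3, and 515 to 2916 with single libraries left out (2916 without combined library 1). The combined group against IL-33 gave 0, and 470 with DESeq2, 786 without the filter (3 receptors), and 0 to 2116 with single libraries left out (2116 without combined library 1). The combined group against anti-Siglec-F gave 643, and 1627 with DESeq2, 424 with limma voom (4 receptors, against 5), 1600 without the filter, 242 with only the groups compared, 220 without combined libraries 2 and 3 (3 receptors), and 124 to 2839 with single libraries left out. The interaction gave 0, and 3 with DESeq2, 86 without the filter, and 0 to 4 with single libraries left out. The causes were not tested. With single libraries left out, receptors called ranged from 2 to 6 with IL-33, 5 to 6 in the combined group against isotype and 1 to 6 against anti-Siglec-F. The 6 against anti-Siglec-F, without combined library 1, were 5 higher and 1 lower (Tlr4). Library totals alone gave 258 higher and 576 lower calls in the combined group against anti-Siglec-F, in place of 393 and 250. With the replicate block the same comparisons gave 364, 0, 1459, 0, 642 and 0 calls, and the number of receptors called was 5, 0, 6, 0, 5 and 0, as without it; of the list genes called with IL-33, Ikbke and Trem1 lost their calls and no other did. Omitting combined libraries 2 and 3 leaves 1 library in that group, assumed to vary like the others. Over 950 refits of single receptors, 906 stayed on the same side of the threshold, 72 of them uncalled with another sign, 28 lost and 16 gained a call, and 0 reversed a called direction.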

Other observations

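Ratios between partner receptors per kilobase of gene length, looked at after the single genes' values had been seen, are given as values. Cd14 stood to Tlr4 as 2.53, 0.781 and 6.40 in the combined libraries, 3.22, 2.13 and 0.925 in the IL-33 libraries, 0.159, 0.208 and 0.216 in the anti-Siglec-F libraries and 0.286, 0.403 and 0.238 in the isotype libraries. Every library with IL-33 was higher than every library without it. The Tlr2 to Tlr6 ratio was 1.10, 0.849 and 1.71 in the combined libraries, 1.71, 1.68 and 0.935 in the IL-33 libraries, 0.127, 0.221 and 0.164 in the anti-Siglec-F libraries and 0.135, 0.185 and 0.326 in the isotype libraries, again without overlap. Clec4e stood to its neighbour Clec4d at 1.9, 1.2 and 1.29 in the combined libraries and 2.77, 1.06 and 2.59 in the IL-33 libraries. This ratio was 0.639, 0.706 and 0.604 in the anti-Siglec-F libraries and 0.59, 0.483 and 0.521 in the isotype libraries. Libraries with and without IL-33 did not overlap in it. By contrast, Clec4d stood to its neighbour Clec4n at 0.183, 0.161 and 0.180 in the combined libraries, 0.142, 0.219 and 0.168 in the IL-33 libraries, 0.197, 0.138 and 0.124 in the anti-Siglec-F libraries and 0.256, 0.355 and 0.187 in the isotype libraries. These ranges overlap between the IL-33, combined and anti-Siglec-F groups. The isotype range overlaps those of IL-33 and anti-Siglec-F but not the combined range. No test was run on these ratios.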
